A study of Mus musculus with 8 samples.

Results

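The 37 genes described here mark microglia and other myeloid cells, and their levels were read from ribosome-bound RNA that was purified from the Otp lineage of mouse brain. The genes were chosen by name from a list of 37 symbols, and all 37 were among the 24421 gene rows of each table. The 8 libraries came from C57BL/6 mice. The 4 KO libraries came from mice with Otp-Cre, homozygous floxed Cic and ROSAfsTRAP, and the 4 Control libraries from mice with Otp-Cre and ROSAfsTRAP and no floxed Cic allele, so that both groups carried the Cre and the ribosome tag. Otp-Cre confines recombination to cells that express or once expressed Otp, and the tag (translating ribosome affinity purification, TRAP) marks ribosomes of those cells. Hypothalamus and medial amygdala were dissected, and no age or sex is given in the labels. Replicates carry numbers in the labels, which do not state whether a library is 1 mouse or a pool. The p-values therefore cover the spread between libraries, which may be technical.

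Microglia are the resident macrophages of the brain. They descend from yolk sac progenitors and not from the neural tube that gives rise to Otp neurons, and they depend on the CSF1 receptor, on TGF-beta signalling and on the transcription factors PU.1 and IRF8. In the hypothalamus they are known for sensing purines through P2Y receptors, for sampling the neuronal chemokine fractalkine through CX3CR1, for tagging material with complement C1q and for clearing it through lysosomes. In bulk samples such as these, fewer cells of a type and less RNA per cell cannot be told apart. Neither can be told apart from less RNA of untagged cells being kept through the purification. No input RNA from before the purification was used here, so the levels do not measure the number of microglia.

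Levels are given as CPM, the deposited read counts scaled to a common library size with edgeR's TMM factors. Library totals ran from 33223878 to 49587839 gene counts in KO and from 38171319 to 57300362 in Control. Fold changes are KO over Control from edgeR's quasi-likelihood fit across all genes, the adjusted p is edgeR's with Benjamini-Hochberg adjustment over every gene that entered the fit, with a threshold of 0.05. SE is that of the difference between the group means of log2 CPM, and means are given ± SD (n = 4 each). Cic, the targeted gene, had 44.9, 34.5, 59.3 and 37.5 CPM in KO replicates 1 to 4, against 103, 72.4, 101 and 101 CPM in Control replicates 1 to 4, with no overlap between the groups. For Cic the log2 fold change was -1.10, with an SE of 0.21 and an adjusted p of 0.00220.

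The defining genes of microglia were present in every library, at low levels. Of the 37 genes, 36 passed the filter on low counts and were tested, and Cd14 did not. The mean over 8 libraries ran from 0.339 CPM for Ptprc to 10.7 CPM for Sall1 among the tested genes (not scaled to gene length), with a median of 2.43 CPM, against 17.3 CPM for all 15438 genes tested. Per kilobase of annotated exon, the 37 genes had a median level of 0.759 CPM and the 12 neuronal markers examined (Rbfox3, Snap25, Syt1 and others) a median level of 58.3 CPM. The same median level per kilobase was 27.1 CPM for 14 oligodendrocyte markers, 12 CPM for 12 astrocyte markers and 0.387 CPM for 14 endothelial and mural markers. Markers of neurons, the cells known to express Otp, were thus at far higher levels per kilobase than the genes described here.

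Of the 36 genes tested, 1 rose in KO, 0 fell and 35 did not pass the test. The gene that rose was Lcp2, and over all genes 0.194% rose and 0.0648% fell, which is 0.259% in either direction. For the genes lower in KO, edgeR's count at an unadjusted p under 0.05 was 4 of 36 (Ly86, Laptm5, Itgam and Fcer1g), against 4.53% of all genes, and for those higher in KO it was 1 of 36 (Lcp2), against 6.06%. DESeq2 called 1 of the 30 genes to which it gave an adjusted p, against 1.44% of all genes, and that gene was again Lcp2 (log2 fold change 1.02, DESeq2 adjusted p = 0.00108). The fold change was negative for 27 and positive for 9 of the 36 genes, with a median log2 fold change of -0.46, beside a median of 0.02 over all genes tested, of which 46.2% were negative. Leaving out KO replicate 4 gave a median of -0.79. The median was -0.20 when Control replicate 1 was left out, -0.69 for Control replicate 2 and -0.16 for Control replicate 4. The 4 genes lower at an unadjusted p under 0.05 became 7 when KO replicate 4 was left out, 9 for Control replicate 2, 8 for Control replicate 3, and 1 for Control replicate 1 and also for Control replicate 4. In 35 of the 36 genes the KO and Control libraries overlapped. Over all genes 5.93% had no overlap.

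**Figure D1:**
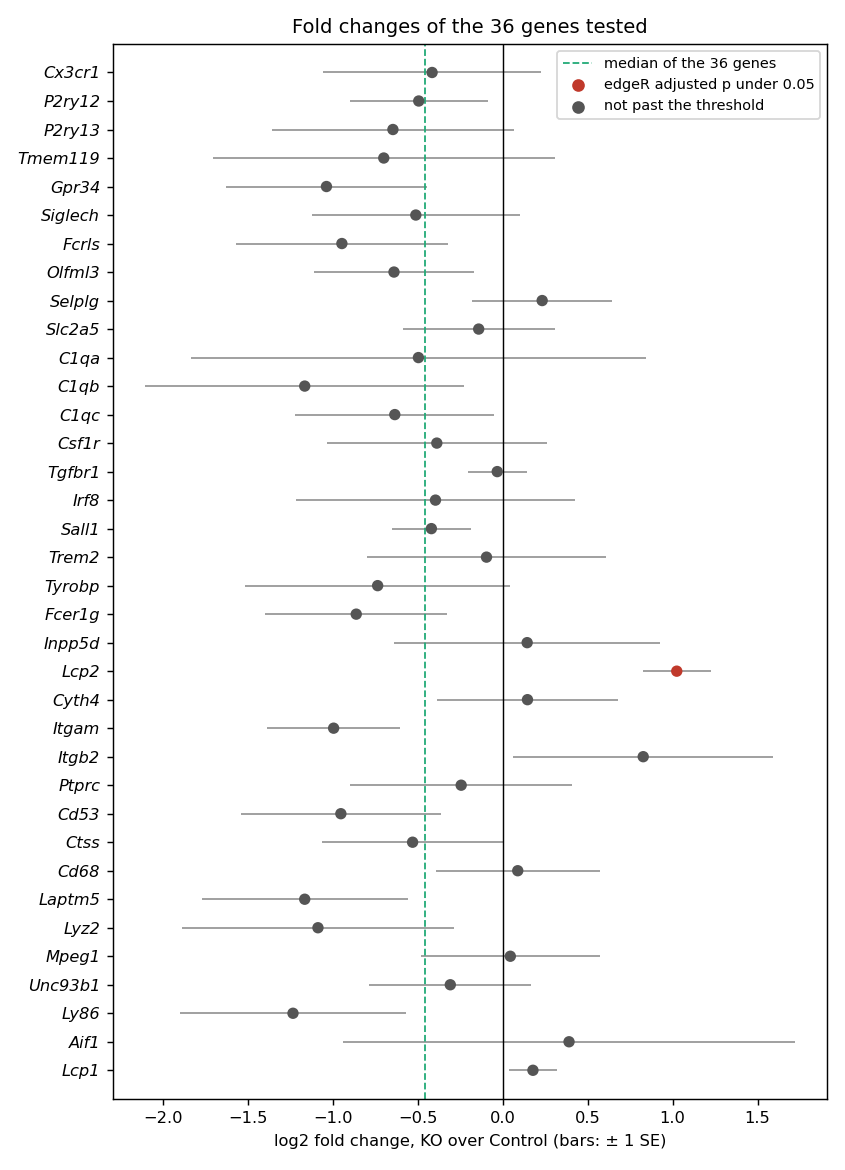
Log2 fold change, KO over Control, of the 36 genes tested, with bars of 1 SE (x axis), in order of role from top to bottom. Most points lie left of 0 with bars that are wide, and Lcp2 at 1.02 is the 1 gene past the threshold.

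The Control libraries differed widely among themselves in these genes. Summed over 34 of them (all but Tgfbr1, Sall1 and Slc2a5), the level was 65.8, 85.0, 72.9 and 96.8 CPM in KO replicates 1 to 4, against 138, 56.9, 61.2 and 153 CPM in Control replicates 1 to 4. Control replicates 1 and 4 lay above all other libraries and Control replicates 2 and 3 below all 4 KO libraries, so the KO range lay inside the Control range. The means of the sum were 80.1 ± 13.7 CPM in KO and 102 ± 50.2 CPM in Control, with a highest to lowest ratio of 1.47 in KO and 2.68 in Control. Lcp1 and Lcp2 made up a larger share of the sum in Control replicates 2 and 3 than in Control replicates 1 and 4. Without them (a choice made after their values were seen) the sum was 48.5, 64.5, 50.6 and 81.5 CPM in KO replicates 1 to 4, against 127, 43.5, 49.4 and 139 CPM in Control replicates 1 to 4, so that Control replicate 3 then lay within the KO range.

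The same order of the Control libraries ran through most single genes. In 28 of the 36 genes (77.8%) both Control replicates 1 and 4 were above both Control replicates 2 and 3, an order that was noticed in these genes, and that 19.1% of all genes tested had. Control replicate 4 was the highest of the 8 libraries for 17 genes, Control replicate 1 for 7 and KO replicate 4 for 6, whereas Control replicates 2 and 3 were the highest for 0. The lowest library was KO replicate 3 for 9 genes, Control replicate 2 for 8 and KO replicate 1 for 7. Over the 36 genes, the median coefficient of variation between libraries was 46.9% in KO and 53.4% in Control, against 19.7% in KO and 13.2% in Control over all genes tested.

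**Figure D2:**
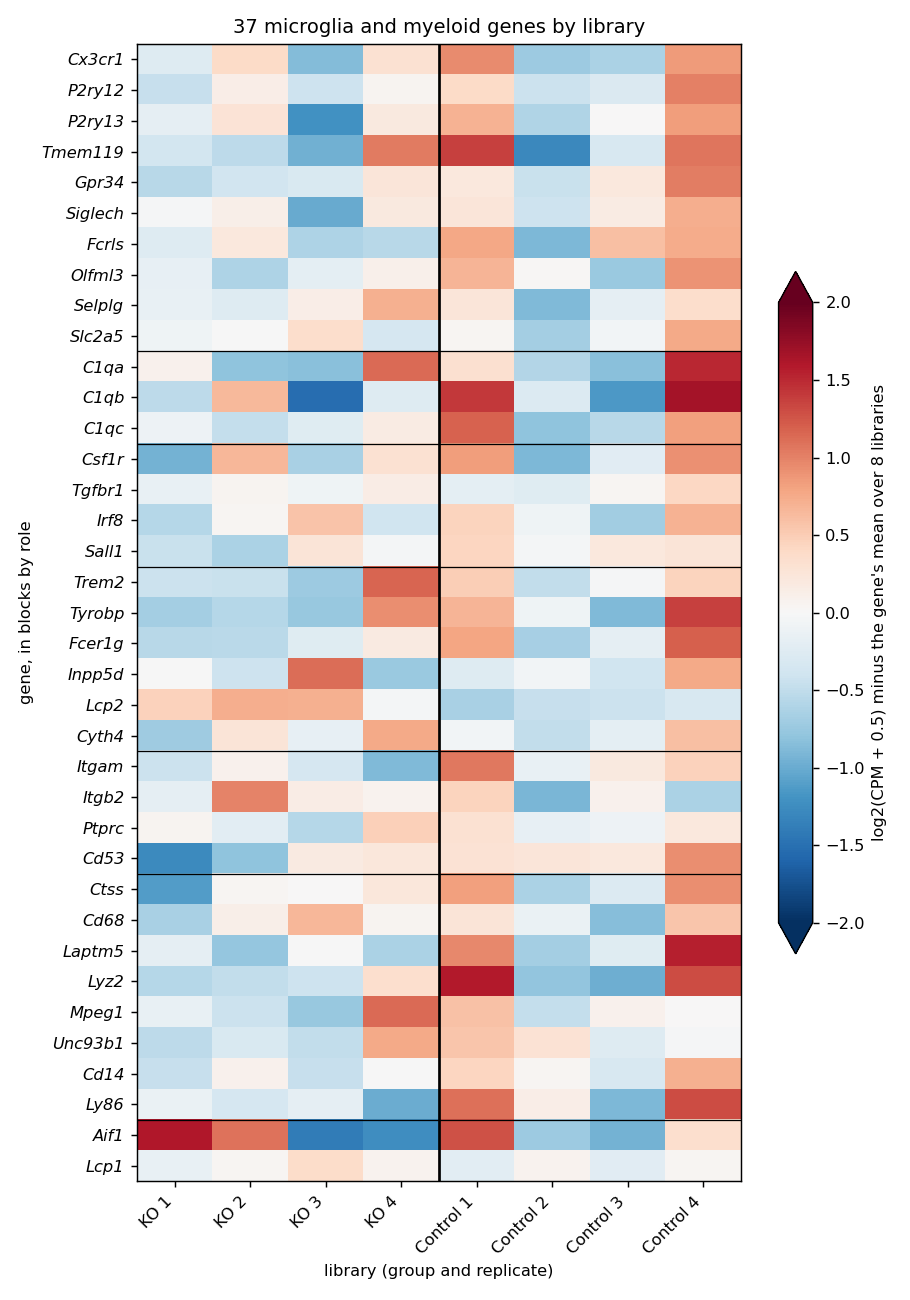
Level of all 37 genes in the 8 libraries, as log2(CPM + 0.5) minus the gene's mean over the libraries (colour, from -2 to 2), with KO libraries left of the black line and Control libraries right of it. The columns of Control replicates 1 and 4 are red for most genes, those of Control replicates 2 and 3 mostly blue, and the row of Lcp2 is red in KO replicates 1 to 3, near 0 in KO replicate 4 and blue in Control.

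Markers of other cells moved with some of these libraries, and their part in the results was not tested. The summed level of 14 endothelial and mural markers was 12.5, 23.2, 24.5 and 40.9 CPM in KO replicates 1 to 4, against 56.6, 18.3, 13.2 and 28.6 CPM in Control replicates 1 to 4. It was highest in Control replicate 1 and next in KO replicate 4, and Control replicates 1 and 4 were above Control replicates 2 and 3. The 10 markers of border macrophages, which lie along vessels and meninges, summed to 6.14, 7.65, 10.1 and 8.93 CPM in KO replicates 1 to 4, against 12.5, 6.16, 4.39 and 12.6 CPM in Control replicates 1 to 4, again with Control replicates 1 and 4 on top. Much of that sum was Maf alone, at 2.87, 3.81, 4.73 and 3.33 CPM in KO replicates 1 to 4. In Control replicates 1 to 4 Maf had 5.34, 2.89, 2.36 and 7.05 CPM. The order of this sum thus rests in good part on 1 gene. The 12 neuronal markers summed to 13259 to 17385 CPM across KO libraries and 12887 to 15087 CPM across Control libraries. Most of that sum was Snap25 alone, at 10160 to 14350 CPM across KO libraries and 9942 to 12080 CPM across Control libraries. The 12 astrocyte markers summed to 1393 to 1934 CPM across KO libraries and 1456 to 1929.8 CPM across Control libraries. For 14 oligodendrocyte markers the sum was 1774 to 3254 CPM across KO libraries, with KO replicate 1 lowest. In Control replicates 1 to 4 it was 3569, 2786, 3164 and 3494 CPM, again with replicates 1 and 4 above replicates 2 and 3. The neuronal sum had that order too, at 13156, 12887, 13092 and 15087 CPM in Control replicates 1 to 4. The astrocyte sum did not. All 14 oligodendrocyte markers were negative, with a median log2 fold change of -0.38 and 9 lower at an unadjusted p under 0.05. Of the 14, 2 fell, Cldn11 (log2 fold change -0.81, adjusted p = 0.0375 by edgeR) and Gjb1 (log2 fold change -1.09, adjusted p = 0.0489 by edgeR). Control replicate 1 also had the most gene counts of the 8 libraries. By smallest p, Aldh1l1 and Gfap led the astrocyte list (log2 fold changes -0.58 and -0.31), Esam and Acta2 the endothelial and mural list (-1.14 and -0.55) and Elavl4 and Map2 the neuronal list (0.37 and 0.29), and none of these 6 passed. For Aldh1l1 and Esam all KO libraries lay below all Control libraries, as in 2.91% of all genes. For Elavl4 all KO libraries lay above, as in 3.01% of all genes.

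**Figure D3:**
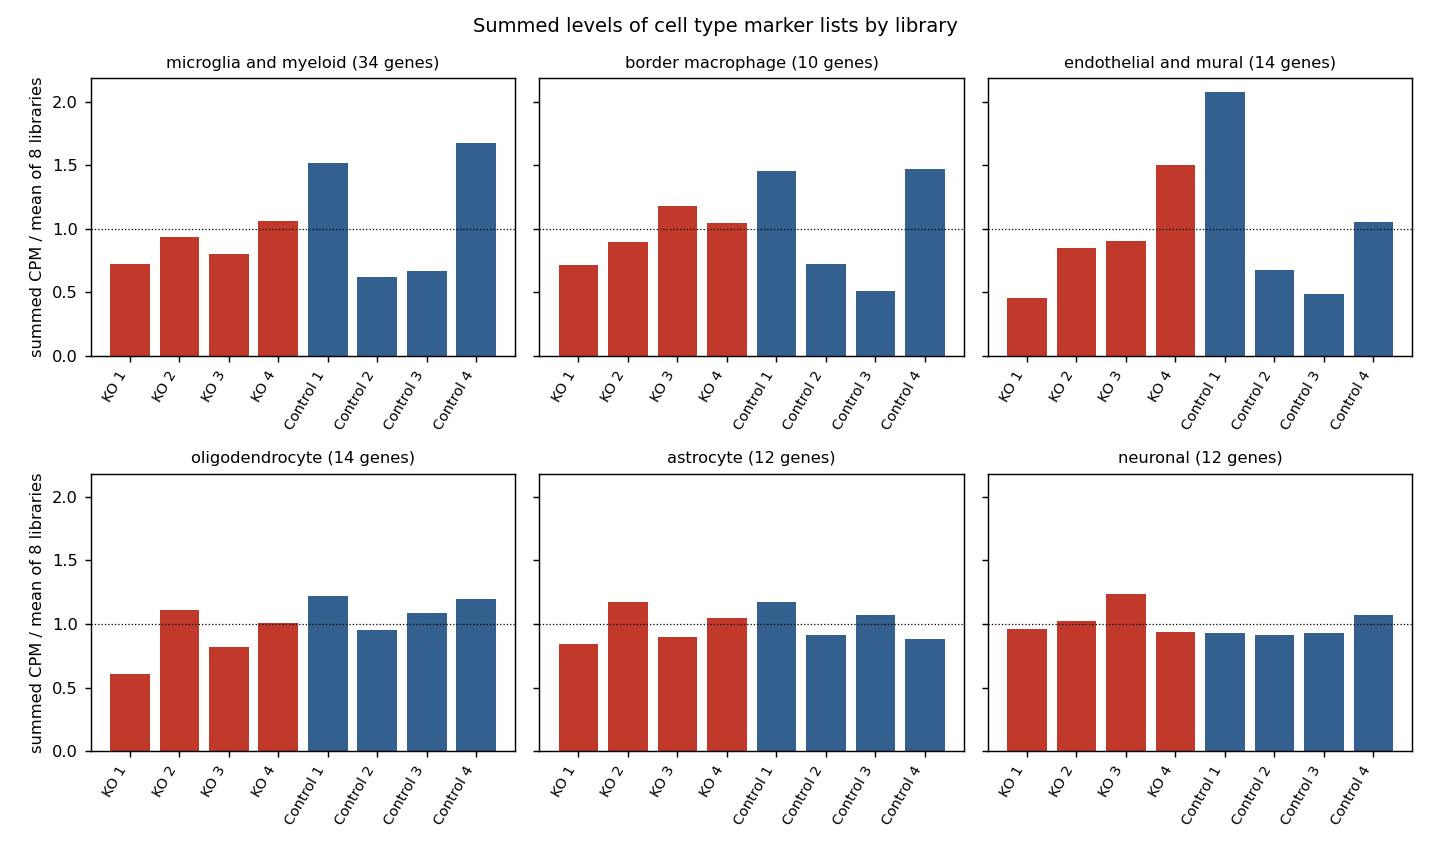
Summed CPM of 6 marker lists in each library, divided by the list's mean over the 8 libraries (y axis from 0), with KO libraries in red on the left and Control libraries in blue on the right of each panel. Control replicates 1 and 4 stand above the dotted line at 1 for the microglia and myeloid, border macrophage, endothelial and mural, and oligodendrocyte lists. Much of the border macrophage sum is 1 gene, Maf.

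The homeostatic surface and secreted genes of microglia were negative in 9 of 10 cases, with a median log2 fold change of -0.58, and 0 of 10 passed. Cx3cr1, the receptor for fractalkine, had 2.04, 3.45, 1.16 and 3.23 CPM in KO replicates 1 to 4, against 5.36, 1.34, 1.46 and 4.97 CPM in Control replicates 1 to 4. Control replicates 1 and 4 were the highest libraries, KO replicate 3 was the lowest, and the groups overlapped. For Cx3cr1 the log2 fold change was -0.42, with an SE of 0.64 and an adjusted p of 0.817. P2ry12, the ADP receptor that steers microglial processes, had 2.41, 3.86, 2.50 and 3.67 CPM in KO replicates 1 to 4, against 4.69, 2.47, 2.78 and 7.54 CPM in Control replicates 1 to 4. For P2ry12 the log2 fold change was -0.49, with an SE of 0.41 and an adjusted p of 0.669. Tmem119, a membrane protein that marks microglia among brain macrophages, had 1.11, 0.942, 0.569 and 3.76 CPM in KO replicates 1 to 4, against 4.84, 0.353, 1.17 and 3.87 CPM in Control replicates 1 to 4. For Tmem119 the log2 fold change was -0.70, with an SE of 1.01 and an adjusted p of 0.804. It was high in Control replicates 1 and 4 and in KO replicate 4 and low in the other 5 libraries.

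The other homeostatic genes overlapped between the groups too. P2ry13, a second ADP receptor, lay at 0.272 to 1.65 CPM across KO libraries and 0.682 to 2.71 CPM across Control libraries (log2 fold change -0.65). Gpr34, a lysophosphatidylserine receptor, had 0.227, 0.322, 0.371 and 0.770 CPM in KO replicates 1 to 4, against 0.736, 0.282, 0.741 and 1.68 CPM in Control replicates 1 to 4 (log2 fold change -1.04, adjusted p = 0.627 by edgeR). Fcrls, an Fc receptor-like gene of mouse microglia, had 1.05, 1.65, 0.718 and 0.770 CPM in KO replicates 1 to 4, against 2.69, 0.494, 2.33 and 2.60 CPM in Control replicates 1 to 4. For Fcrls the log2 fold change was -0.95, with an SE of 0.62 and an adjusted p of 0.527. Control replicate 2 was far below the other Control libraries for this gene. Siglech, a sialic acid-binding lectin, lay at 0.223 to 1.17 CPM across KO libraries and 0.588 to 1.90 CPM across Control libraries. Olfml3, a secreted olfactomedin-like protein, had 2.27, 1.52, 2.20 and 2.83 CPM in KO replicates 1 to 4, against 4.45, 2.66, 1.35 and 5.24 CPM in Control replicates 1 to 4. For Olfml3 the log2 fold change was -0.64, with an SE of 0.47 and an adjusted p of 0.594. Selplg, the selectin ligand, was the 1 gene of this group with a positive value (0.23, adjusted p = 0.877 by edgeR). Slc2a5, the fructose transporter, had 1.15, 1.24, 1.73 and 0.893 CPM in KO replicates 1 to 4, against 1.3, 0.588, 1.19 and 2.46 CPM in Control replicates 1 to 4 and a log2 fold change of -0.14.

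The C1q chains are encoded by neighbouring genes on chromosome 4 that assemble into the recognition molecule of the classical complement pathway, C1qb (chr4:136880129-136886187), C1qc (chr4:136889804-136893065) and C1qa (chr4:136895917-136898803), all on the minus strand of GRCm38. C1qb had 2.19, 5.56, 0.841 and 2.74 CPM in KO replicates 1 to 4, against 9.76, 2.68, 1.24 and 11.7 CPM in Control replicates 1 to 4. Control replicates 1 and 4 were above the other 6 libraries. For C1qb the log2 fold change was -1.17, with an SE of 0.94 and an adjusted p of 0.675. C1qc had 2.72, 1.98, 2.43 and 3.39 CPM in KO replicates 1 to 4, against 7.29, 1.48, 1.85 and 5.62 CPM in Control replicates 1 to 4, with Control replicates 1 and 4 again above the other 6 libraries. For C1qc the log2 fold change was -0.64, with an SE of 0.59 and an adjusted p of 0.649. C1qa, the third chain, had 0.598, 0.0919, 0.0742 and 1.76 CPM in KO replicates 1 to 4, against 0.787, 0.188, 0.0794 and 2.44 CPM in Control replicates 1 to 4. For C1qa the log2 fold change was -0.50, with an SE of 1.34 and an adjusted p of 0.910. Per kilobase of exon the mean level over 8 libraries was 4.22 CPM for C1qb, 1.73 CPM for C1qc and 0.723 CPM for C1qa. Summed, the 3 chains had 5.50, 7.62, 3.34 and 7.89 CPM in KO replicates 1 to 4, against 17.8, 4.35, 3.18 and 19.7 CPM in Control replicates 1 to 4, and all 4 KO libraries lay within the Control range.

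Other genes of the complement system did not pass either. Of 13 tested among 19 examined, 3 were positive and 10 negative, with a median log2 fold change of -0.09, 0 called by edgeR and 0 at an unadjusted p under 0.05. C3, the central component that C1q activation cleaves, had 2.89, 6.25, 4.03 and 3.88 CPM in KO replicates 1 to 4, against 5.0, 5.53, 4.02 and 3.11 CPM in Control replicates 1 to 4 (log2 fold change -0.05). The 2 of smallest p were Cd59a, an inhibitor of the membrane attack complex (log2 fold change 0.21, adjusted p = 0.704 by edgeR), and Cfb, factor B of the alternative pathway (log2 fold change -0.29, adjusted p = 0.731 by edgeR).

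Receptors and transcription factors of the lineage were all 4 negative and 0 passed. Csf1r, the receptor that microglia need to survive, had 2.00, 7.12, 2.55 and 5.39 CPM in KO replicates 1 to 4, against 8.06, 2.07, 3.57 and 8.53 CPM in Control replicates 1 to 4. For Csf1r the log2 fold change was -0.39, with an SE of 0.65 and an adjusted p of 0.835. Its annotated exons share 15.1% of their bases with Hmgxb3 on the opposite strand, and the libraries were made from double-stranded cDNA by a protocol that does not mark strand, so reads of the 2 genes cannot be told apart there. Irf8, a transcription factor of myeloid cells, had 0.165, 0.505, 0.965 and 0.246 CPM in KO replicates 1 to 4, against 0.839, 0.423, 0.106 and 1.10 CPM in Control replicates 1 to 4 (log2 fold change -0.40, adjusted p = 0.904 by edgeR). Spi1, which encodes PU.1 and is not among the 37, lay at 0.124 to 0.524 CPM across KO libraries and 0.282 to 1.10 CPM across Control libraries (log2 fold change -0.66, adjusted p = 0.804 by edgeR).

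Sall1 and Tgfbr1 are not confined to microglia. Sall1, a zinc finger factor that keeps microglial identity and is known in other tissues too, had 7.54, 6.5, 12.5 and 10.1 CPM in KO replicates 1 to 4, against 14.2, 10.2, 12.1 and 12.5 CPM in Control replicates 1 to 4. For Sall1 the log2 fold change was -0.42, with an SE of 0.23 and an adjusted p of 0.490. KO replicates 1 and 2 were the lowest libraries, and KO replicates 3 and 4 lay within or just below the Control range. Tgfbr1, a TGF-beta receptor subunit with wide expression, had 8.41, 9.76, 8.78 and 10.5 CPM in KO replicates 1 to 4, against 8.11, 7.83, 9.66 and 12.7 CPM in Control replicates 1 to 4, so the groups overlapped almost wholly. For Tgfbr1 the log2 fold change was -0.03, with an SE of 0.17 and an adjusted p of 0.975. Its partner Tgfbr2, which is not among the 37, had 0.969, 2.09, 2.43 and 1.94 CPM in KO replicates 1 to 4, against 7.17, 2.66, 3.18 and 4.97 CPM in Control replicates 1 to 4. All 4 KO libraries lay below all 4 Control libraries for Tgfbr2, which did not pass over all genes (log2 fold change -1.28 with SE 0.43, adjusted p = 0.177 by edgeR, exact two-sided permutation p = 0.0286, the smallest this design allows), and 2.91% of all genes showed such a separation with KO below.

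Ligands and partners of these receptors, many of them made by neurons, gave no call. Of 14 tested among 15 examined, 7 were positive and 7 negative, with a median log2 fold change of 0.00, 0 called by edgeR and 1 (Tgfbr2) at an unadjusted p under 0.05. Cx3cl1, the neuronal ligand of CX3CR1, had 140.1, 147, 132 and 163 CPM in KO replicates 1 to 4, against 177, 125, 153 and 154 CPM in Control replicates 1 to 4 (log2 fold change -0.07, SE 0.12). The CSF1R ligands Csf1 and Il34 had 17.5 ± 2.68 CPM in KO and 16.1 ± 1.91 CPM in Control for Csf1 and 12.7 ± 2.02 CPM in KO and 14.3 ± 3.24 CPM in Control for Il34. Cd200, a neuronal surface protein that restrains myeloid cells, had 240.4 ± 23.2 CPM in KO and 221 ± 25.2 CPM in Control. Apoe, a lipid carrier and a ligand of TREM2, had 148 ± 55.6 CPM in KO and 179 ± 34.5 CPM in Control (log2 fold change -0.28, adjusted p = 0.712 by edgeR). Tgfb1, with the next smallest p in the list, was at 0.0825 to 0.322 CPM across KO libraries and 0.106 to 0.706 CPM across Control libraries (log2 fold change -1.49, adjusted p = 0.512 by edgeR). Tgfb1 and Apoe lie 0.419 Mb and 5.57 Mb from Cic on chromosome 7, and for both, DNA linked to the floxed allele that only KO mice carried and loss of Cic cannot be told apart.

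Among the 6 genes of TREM2-DAP12 and Fc receptor signalling, 1 rose, 0 fell and 5 did not pass. Trem2, the lipid-sensing receptor of microglia, had 0.536, 0.528, 0.346 and 2.62 CPM in KO replicates 1 to 4, against 1.47, 0.494, 0.874 and 1.41 CPM in Control replicates 1 to 4, where KO replicate 4 was the highest and the other 3 KO libraries were among the lowest. For Trem2 the log2 fold change was -0.10, with an SE of 0.70 and an adjusted p of 0.977. Tyrobp encodes DAP12, the signalling partner of TREM2, and had 0.928, 1.03, 0.841 and 3.82 CPM in KO replicates 1 to 4, against 3.15, 1.65, 0.741 and 5.37 CPM in Control replicates 1 to 4. For Tyrobp the log2 fold change was -0.74, with an SE of 0.78 and an adjusted p of 0.718. KO replicate 4 again stood above the other KO libraries. Tyrobp lies 5.15 Mb from Cic on chromosome 7, and only KO mice carried the floxed allele, so for this gene DNA linked to that allele and loss of Cic cannot be told apart. Fcer1g, the shared gamma chain of Fc receptors, had 1.55, 1.59, 2.05 and 2.93 CPM in KO replicates 1 to 4, against 4.69, 1.41, 2.17 and 6.40 CPM in Control replicates 1 to 4. For Fcer1g the log2 fold change was -0.86, with an SE of 0.54 and an adjusted p of 0.470. Inpp5d, which encodes the phosphatase SHIP1, lay at 0.185 to 2.00 CPM across KO libraries and 0.371 to 1.46 CPM across Control libraries and Cyth4, a cytohesin, at 0.557 to 2.43 CPM across KO libraries and 0.729 to 2.13 CPM across Control libraries, with log2 fold changes of 0.14 for Inpp5d and 0.15 for Cyth4.

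Lcp2 was the exception of the group and of the whole list. It encodes SLP-76, an adaptor that links immune receptors to calcium and actin responses in T cells, platelets and myeloid cells, and it lies at chr11:34046920-34092295 on the plus strand of GRCm38. Lcp2 had 10.4, 12.6, 12.4 and 7.18 CPM in KO replicates 1 to 4, against 4.52, 5.25, 5.32 and 5.82 CPM in Control replicates 1 to 4. Every KO library was above every Control library, by a margin that was narrow between KO replicate 4 and Control replicate 4. The means were 10.6 ± 2.50 CPM in KO and 5.23 ± 0.536 CPM in Control, a 2.03-fold difference (log2 fold change 1.02 with SE 0.20, adjusted p = 0.0489 by edgeR, exact two-sided permutation p = 0.0286, the smallest this design allows). Over all genes 3.01% had no overlap with KO above. The call was close to the threshold. When 1 library was left out, the call was kept for KO replicate 4 (edgeR adjusted p = 0.0119) and lost for the other 7. The adjusted p by edgeR was then 0.0872, 0.146 and 0.120 for KO replicates 1 to 3, and 0.233, 0.138, 0.112 and 0.146 for Control replicates 1 to 4. The log2 fold change stayed between 0.92 and 1.16 in all 15 alternatives.

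Lcp2 did not follow the order of libraries seen in most of the list. Control replicates 1 and 4, which were highest for most of the list, were the lowest and the highest of the 4 Control libraries for Lcp2, within a span of 4.52 to 5.82 CPM. Per kilobase of exon the mean level of Lcp2 was 1.78 CPM, within the range of the list. The lowest of the 37 genes was Ptprc (CD45), which is found on all nucleated blood cells, at 0.0185 CPM. The highest was Ctss at 5.50 CPM, and the median was 0.759 CPM. Of the T cell markers Cd3e, Cd3d, Cd3g and Cd8a were too low to test, while Cd4, which macrophages can also carry, averaged 4.41 ± 3.29 CPM in KO and 4.74 ± 2.93 CPM in Control. No gene in the files shares annotated exons with Lcp2. Its neighbours on chromosome 11 (chosen after its values were seen) did not pass the test. In 2 of the 4, Kcnip1 and Dock2, all KO libraries lay above all Control libraries, as in 3.01% of all genes. Kcnip1, a potassium channel interacting protein of neurons, lay at 219 to 256 CPM across KO libraries and 173 to 213 CPM across Control libraries (log2 fold change 0.31, adjusted p = 0.321 by edgeR). Dock2, a guanine nucleotide exchange factor of blood cells, lay at 1.42 to 3.42 CPM across KO libraries and 0.874 to 1.34 CPM across Control libraries (log2 fold change 0.86, adjusted p = 0.486 by edgeR).

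The sequence just before the RefSeq start of Lcp2 is shown because Lcp2 was the 1 gene called and CIC represses genes through a short DNA site. The 150 bases before the start, at chr11:34046778-34046927 on the plus strand of GRCm38.p6, are in lower case with nothing marked.
Lcp2: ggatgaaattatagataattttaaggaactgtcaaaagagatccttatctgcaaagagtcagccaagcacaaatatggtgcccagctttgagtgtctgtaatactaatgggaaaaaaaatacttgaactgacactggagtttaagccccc
The letters TGAATGA and TCAATGA, cores of known CIC sites, were searched on both strands of RefSeq's promoter window, from 250 bases before to 50 after the start. Neither was found in Lcp2. Other forms of the CIC site were not searched, so the search does not show that such sites are absent. Of the 34 promoters that RefSeq gives for 28 of the 37 genes, 1 (Fcer1g) held TGAATGA and 0 held TCAATGA, against 3.75% of all 32851 promoters for TGAATGA and 2.41% for TCAATGA.

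The core letters of the PU.1 site, GAGGAA, were searched in the same way, because PU.1 is a main regulator of macrophage genes. Of the 34 promoters of the list 17 (50%) held GAGGAA on either strand, each from a different gene, against 28.3% of all promoters. Lcp2 was among the 17, with a match on the other strand that began 4 bases after the start, past the stretch printed above. A match describes the letters only. The windows of 5 genes in which Control replicates 1 and 4 were above Control replicates 2 and 3 (chosen after their values were seen) are printed 5′ to 3′ on the strand of the gene, with the match in capitals (TTCCTC where it reads on the other strand), on GRCm38.p6.
C1qb chr4:136886203-136886252 minus strand: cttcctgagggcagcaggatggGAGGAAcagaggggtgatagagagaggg
C1qc chr4:136893080-136893129 minus strand: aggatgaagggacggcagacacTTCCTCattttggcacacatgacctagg
Itgam chr7:128062534-128062583 plus strand: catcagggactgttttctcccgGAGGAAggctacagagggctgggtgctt
Laptm5 chr4:130913256-130913305 plus strand: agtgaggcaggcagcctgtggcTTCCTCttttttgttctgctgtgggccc
P2ry13 chr3:59210903-59210952 minus strand: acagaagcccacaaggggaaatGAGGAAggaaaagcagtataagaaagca
In these 5 windows the match was on the gene's own strand in C1qb, Itgam and P2ry13 and on the other strand in C1qc and Laptm5. The Itgam promoter held 2 further matches, both on the other strand. The printed match began 30 bases before the start in C1qb and 193 bases before it in C1qc.

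Genes of leukocyte adhesion and surface identity were at low levels, and 0 of 4 passed. Itgam, the integrin chain CD11b, had 1.44, 2.27, 1.58 and 0.924 CPM in KO replicates 1 to 4, against 4.95, 1.86, 2.52 and 3.11 CPM in Control replicates 1 to 4. Only Control replicate 2 lay below the highest KO library (log2 fold change -1.0 with SE 0.39, adjusted p = 0.342 by edgeR, exact two-sided permutation p = 0.0571). Itgb2, the beta chain that pairs with CD11b, did not go with Itgam and had 0.495, 1.72, 0.742 and 0.678 CPM in KO replicates 1 to 4, against 1.03, 0.0941, 0.688 and 0.224 CPM in Control replicates 1 to 4. For Itgb2 the log2 fold change was 0.83, with an SE of 0.76 and an adjusted p of 0.742. Cd53, a tetraspanin of leukocytes, had 0.371, 0.712, 1.91 and 1.97 CPM in KO replicates 1 to 4, against 2.07, 2.00, 1.93 and 3.54 CPM in Control replicates 1 to 4, where KO replicates 1 and 2 were below all other libraries and KO replicates 3 and 4 close to the lowest Control library. For Cd53 the log2 fold change was -0.95, with an SE of 0.59 and an adjusted p of 0.50. Ptprc had the lowest mean CPM of the tested genes, with 0.350, 0.207, 0.0495 and 0.647 CPM in KO replicates 1 to 4, against 0.514, 0.235, 0.265 and 0.448 CPM in Control replicates 1 to 4 (log2 fold change -0.25).

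Endolysosomal and innate sensing genes included Ly86, which had the most negative fold change of the 36 genes tested, and 0 of the 7 tested passed. Ly86, which encodes MD-1, had 1.88, 1.56, 1.78 and 0.801 CPM in KO replicates 1 to 4, against 5.07, 2.35, 0.900 and 5.89 CPM in Control replicates 1 to 4. For Ly86 the log2 fold change was -1.24, with an SE of 0.67 and an adjusted p of 0.329. Laptm5, a lysosomal membrane protein of blood cells, had 3.17, 1.95, 3.64 and 2.19 CPM in KO replicates 1 to 4, against 7.67, 2.12, 3.04 and 11.8 CPM in Control replicates 1 to 4. For Laptm5 the log2 fold change was -1.17, with an SE of 0.61 and an adjusted p of 0.330. For both genes Control replicates 1 and 4 were the highest libraries, while Control replicate 3 for Ly86 and Control replicates 2 and 3 for Laptm5 lay within the KO range. Lyz2, the lysozyme of macrophages, had 2.06, 2.18, 2.33 and 4.28 CPM in KO replicates 1 to 4, against 10.9, 1.69, 1.43 and 8.89 CPM in Control replicates 1 to 4. For Lyz2 the log2 fold change was -1.09, with an SE of 0.80 and an adjusted p of 0.584. Reads that it shares with its near-identical copy Lyz1 can be split or dropped in counting, so its level is uncertain.

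The other 4 tested genes of this group did not pass either. Ctss, the cathepsin of antigen processing, had the highest level per kilobase of the list (5.50 CPM) and 2.84, 6.91, 6.78 and 7.98 CPM in KO replicates 1 to 4, against 12.3, 4.16, 5.48 and 13.4 CPM in Control replicates 1 to 4. For Ctss the log2 fold change was -0.53, with an SE of 0.53 and an adjusted p of 0.677. Cd68, a lysosomal glycoprotein of macrophages, lay at 1.53 to 4.50 CPM across KO libraries and 1.24 to 4.12 CPM across Control libraries (log2 fold change 0.09). Mpeg1, the pore-forming perforin-2, lay at 1.78 to 7.95 CPM across KO libraries and 2.26 to 5.27 CPM across Control libraries (log2 fold change 0.04), with KO replicate 4 the highest of all libraries. Unc93b1, the chaperone of endosomal Toll-like receptors, lay at 0.639 to 2.28 CPM across KO libraries and 0.874 to 1.92 CPM across Control libraries (log2 fold change -0.31). Cd14, the LPS co-receptor, was not tested and had 0, 0.230, 0 and 0.185 CPM in KO replicates 1 to 4, against 0.428, 0.212, 0.0530 and 0.627 CPM in Control replicates 1 to 4, so that 2 KO libraries held no read of it. A count of 0 allows up to 0.0618 CPM in KO replicate 1 and 0.0742 CPM in KO replicate 3 (3 counts a library, counting error only). Fitted with no filter on low counts, Cd14 had a log2 fold change of -1.68 (adjusted p = 0.668 by edgeR), more negative than that of Ly86.

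The actin-binding pair were both positive and neither passed. Aif1, which encodes the common microglial stain IBA1, had 5.09, 3.38, 0.198 and 0.277 CPM in KO replicates 1 to 4, against 3.94, 0.612, 0.450 and 1.81 CPM in Control replicates 1 to 4. For Aif1 the log2 fold change was 0.39, with an SE of 1.33 and an adjusted p of 0.940. Its order of KO libraries was unlike that of Cx3cr1 or P2ry12, since KO replicates 1 and 2 were high and KO replicates 3 and 4 were below all Control libraries. Within Control, replicates 1 and 4 were above replicates 2 and 3, as for Cx3cr1 and P2ry12. Lcp1, the actin-bundling L-plastin, had 6.86, 7.88, 10.0 and 8.07 CPM in KO replicates 1 to 4, against 6.52, 8.12, 6.51 and 7.88 CPM in Control replicates 1 to 4 and little spread in either group. For Lcp1 the log2 fold change was 0.18, with an SE of 0.14 and an adjusted p of 0.825.

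**Figure D4:**
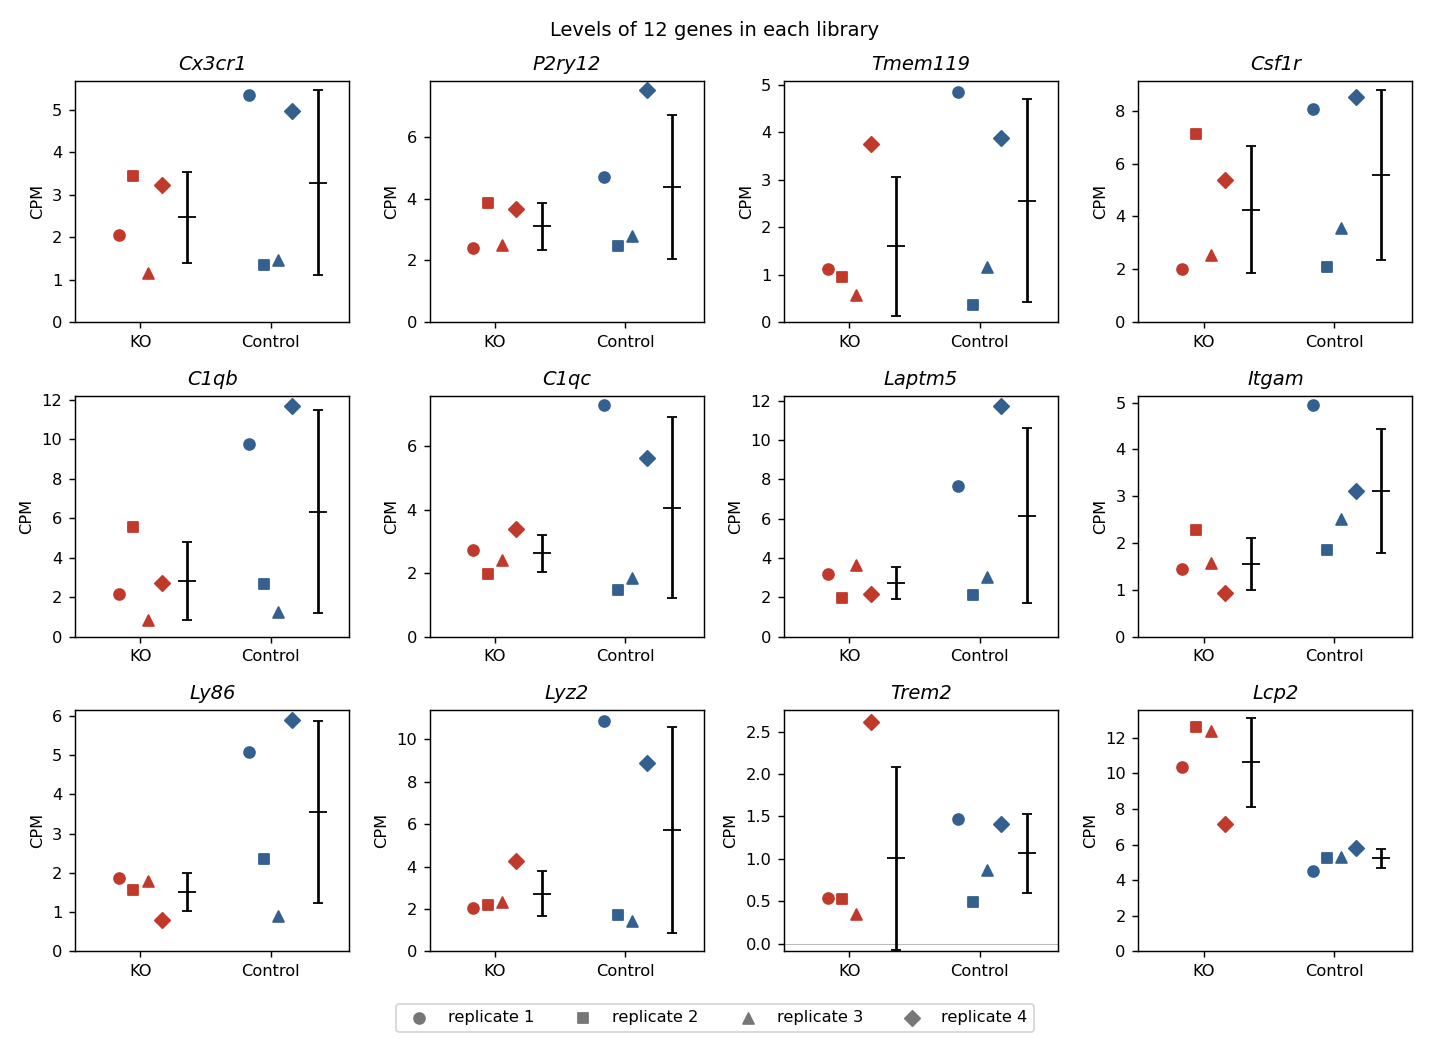
CPM of 12 genes in each library (symbols by replicate number, KO red and left, Control blue and right), with the mean and SD in black beside each group (n = 4 each). For Cx3cr1, C1qb, Laptm5, Ly86 and Lyz2 the Control group splits into replicates 1 and 4 at the top and replicates 2 and 3 at the bottom, and Lcp2 is the 1 panel without overlap.

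Other myeloid genes were negative more often than positive, with 0 calls. Of 46 tested among 48 examined (Spi1, Cd33, Fcgr3 and others), 32 were negative and 14 positive, with a median log2 fold change of -0.22, 0 called by edgeR, and 2 lower and 0 higher at an unadjusted p under 0.05. The 2 were Fcgr2b, the inhibitory Fc receptor, at 0.0206 to 0.585 CPM across KO libraries and 0.371 to 1.6 CPM across Control libraries (log2 fold change -1.90, adjusted p = 0.403 by edgeR), and Tgfa, a growth factor that neurons also make, at 23.5 to 37.1 CPM across KO libraries and 36.6 to 41.5 CPM across Control libraries (log2 fold change -0.30, adjusted p = 0.470 by edgeR).

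Genes of reactive microglia, interferon responses and infiltrating cells gave 0 calls with edgeR as well. Of 13 reactive genes tested among 20, 10 were negative and 3 positive (median log2 fold change -0.19), with 2 lower and 1 higher at an unadjusted p under 0.05. The chemokine Ccl3 lay at 0.0616 to 0.322 CPM across KO libraries and 0.344 to 0.668 CPM across Control libraries (log2 fold change -1.89, adjusted p = 0.376 by edgeR). All KO libraries lay below all Control libraries for Ccl3, as in 2.91% of all genes, and KO replicates 1, 3 and 4 held 3 counts of it or fewer. The tetraspanin Cd63 lay at 31.4 to 62.9 CPM across KO libraries and 51.9 to 65.9 CPM across Control libraries (log2 fold change -0.37, adjusted p = 0.448 by edgeR). The 1 higher was Cd74, the invariant chain of MHC class II (named after its values were seen), at 3.93 to 10.9 CPM across KO libraries and 3.71 to 6.22 CPM across Control libraries (log2 fold change 0.60, adjusted p = 0.467 by edgeR). Itgax, Clec7a and Cst7, which mark disease-associated microglia, were too low to test. Of 10 interferon response genes tested among 12, 6 were negative and 4 positive (median log2 fold change -0.09), with 1 lower (Ifit2, log2 fold change -0.61, adjusted p = 0.190 by edgeR) and 1 higher (Ifit1, log2 fold change 1.11, adjusted p = 0.386 by edgeR) at an unadjusted p under 0.05.

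Markers of cells from the blood or the brain's borders were mostly low. Of 10 monocyte and neutrophil markers 4 could be tested, with 0 calls (Ly6c2 log2 fold change -1.67, Vcan 0.23), and Ccr2, S100a8 and S100a9 were too low to test, with highest values of 0.0924 CPM for Ccr2, 0.431 CPM for S100a8 and 0.0685 CPM for S100a9. In the border macrophage list 7 of 10 were tested, 3 positive and 4 negative (median log2 fold change -0.02), with 0 called by edgeR and 0 at an unadjusted p under 0.05. Mrc1, the mannose receptor, lay at 0.412 to 1.21 CPM across KO libraries and 0.238 to 1.66 CPM across Control libraries, and Lyve1 (log2 fold change 1.0) and Stab1 (log2 fold change -0.78) had the smallest p of that list. Of the lymphocyte markers Cd79b and Cd4 were tested, with 0 calls. Cd4 lay at 1.63 to 8.84 CPM across KO libraries and 1.18 to 7.74 CPM across Control libraries.

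**Figure D5:**
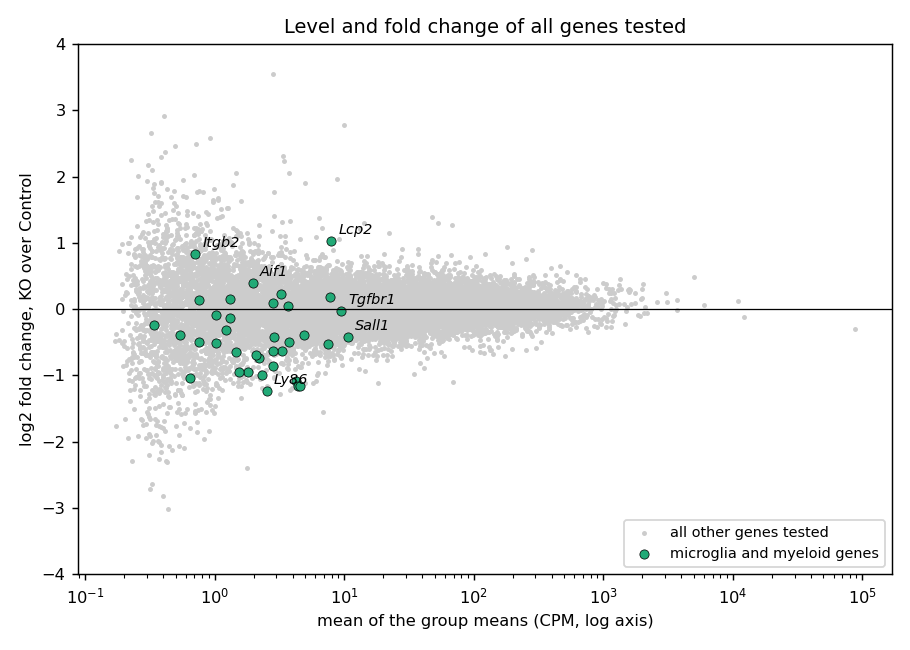
Mean of the group means (x axis, CPM on a log axis) and log2 fold change, KO over Control (y axis), of the 36 genes tested (green) and of all other genes tested (grey). Most green points lie below 0 and within the grey cloud at levels of 0.339 to 10.7 CPM, and Lcp2 lies near its upper edge.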

How the data were processed

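Each of the 8 deposited tables holds raw read counts per gene symbol for 1 library. The submitters' processing notes name TopHat2 2.0.9, HTSeq, DESeq2 and the build mm10, while the annotation and the strand setting were not given in the sources at hand. RNA was amplified before library construction, per the labels' protocols, which name no molecular identifiers, so the spread between libraries may include amplification. The 24421 gene rows were used, without the 92 spike-in rows and the 5 rows of HTSeq totals. Spike-in counts were 0.0655, 0.0569, 0.395 and 0.0739% of gene counts in KO replicates 1 to 4. In Control replicates 1 to 4 they were 0.2985, 0.522, 0.401 and 0.327%. KO replicates 1, 2 and 4 thus lay below all Control libraries, and the reason was not tested. Alignments that were not unique made up 63.3% of records in Control replicate 1, the lowest, and 81.9% in KO replicate 4, the highest. Genes were filtered with filterByExpr (minimum count 10, minimum total 15) and tested with edgeR 4.0.16 in R 4.3.3 (TMM, robust quasi-likelihood, no covariate, all 8 libraries), a fit tested on simulated data. DESeq2 1.42.0, other scalings, no filter, the Rn45s row left out, a replicate block and leaving out each library were alternatives. Log values used a prior count of 2. Single genes were also compared by exact two-sided permutation. Exon lengths, overlaps and positions came from GENCODE on GRCm38, and promoters from RefSeq on GRCm38.p6. Of the related genes, Trbc2 was not matched by symbol, and Lrrc33, an older name of Nrros, was not counted beside it. The 37 genes and the related lists were chosen with earlier results of these data known, so no list was tested. Of the 37 genes, those given per library were those past the threshold, those with no overlap, the 10 of smallest p, the extremes of level and a set of named markers. From each related list the called genes, the 2 of smallest p and set names were described, not all of them per library.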

Additional observations from a re-analysis of the deposited data

Results flagged for a closer look

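Within groups of 4, a library was singled out where its gap to the nearest other was a larger share of the group's range than Dixon's 95% critical value for 4 samples. Of 72 groups (36 genes in each genotype) 7 were singled out, and chance gives about 1 in 20, here 3.6. In 5 of the 7, KO replicate 4 was the highest KO library, at 3.76 CPM for Tmem119, 2.62 CPM for Trem2, 3.82 CPM for Tyrobp, 4.28 CPM for Lyz2 and 2.28 CPM for Unc93b1. The other two were in Control, Fcrls in replicate 2 as the lowest at 0.494 CPM and Cd53 in replicate 4 as the highest at 3.54 CPM. The genes share libraries, so these are not independent.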

How the results depend on the processing

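The median log2 fold change of the tested genes was negative in all 15 alternatives (-0.79 to -0.16), beside an SD between libraries of 0.59 in their median log2 level. Lcp2 was called in 5 of the 15. No gene of the list was called (0) with upper-quartile scaling (Lcp2 edgeR adjusted p = 0.0599), total counts only (0.0700) or Rn45s, the ribosomal RNA row, left out (0.0512), and leaving out 1 library gave 0 to 1 calls. Over all genes, 40 were called, against 198 with DESeq2, 26 with total counts only and 14 to 53 when 1 library was left out. With the replicate number as a block, 65 genes were called and Lcp2 stayed past the threshold (edgeR adjusted p = 0.0494). Same-numbered libraries correlated between -0.05 and 0.10 in their deviations from the group means, and 1 of 4 KO libraries correlated best with its own number, so the numbers were not shown to pair the samples. The sign turned in the block fit for Slc2a5 (0.00034), Inpp5d (-0.13), Mpeg1 (-0.14) and Aif1 (-0.12). It also turned when some single libraries were left out for Selplg (-0.048 to 0.42), Slc2a5 (-0.40 to 0.29), C1qa (-1.76 to 0.79), Tgfbr1 (-0.12 to 0.13), Irf8 (-1.01 to 0.026), Trem2 (-1.18 to 0.19), Inpp5d (-0.85 to 0.73), Cyth4 (-0.27 to 0.52), Ptprc (-0.84 to 0.11), Cd68 (-0.20 to 0.35), Mpeg1 (-0.62 to 0.29) and Aif1 (-0.41 to 1.22), given as log2 ranges over the 8 such fits. In all, 24 of the 36 genes kept their sign under the 15 alternatives and 12 did not, none of these 12 being past the threshold, and the cause was not tested. With levels of a few CPM and 4 libraries a group, differences of the size seen were mostly within the spread between libraries.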
